A study of Homo sapiens with 4 samples.

Results

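The genes examined here are the matrix glycoprotein genes FN1, TGFBI, THBS1, SPARC, TNC, POSTN and FBN1 and the matrix cross-linking enzyme gene LOX, taken by symbol as 8 of the 36601 genes in each deposited matrix. They were measured by single-cell RNA sequencing in U-2 OS cells, a long-established line from a human osteosarcoma, with IR cells, given 4 Gy of ionizing radiation 48 h before sorting, and UT cells, left untreated. The treatment protocol in the labels gives 24 h instead of the 48 h in the design and in the study's methods. The labels give no genetic change or further agent for either group, so that the model is 1 cancer line in serum-containing culture. There were 2 experiments with 1 IR and 1 UT library each, and the study's methods call them independent sets of samples.

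Matrix glycoproteins are secreted proteins that assemble around the cell and bind collagens, growth factors and cell surface receptors. Fibronectin, the FN1 product, is pulled into fibrils by integrins and serves as a scaffold on which collagens and fibrillin are laid down. SPARC, thrombospondin-1, tenascin-C and periostin are matricellular proteins, which modulate adhesion and growth factor access more than they bear load, and TGFBI is a secreted, integrin-binding protein named for its induction by TGF-beta. Mesenchymal cells and the tumours that arise from them, osteosarcoma among them, typically make many of these proteins.

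All 1220 deposited cells were used, 247 and 248 in the IR libraries and 358 and 367 in the UT libraries (experiments 1 and 2 in this order, here and throughout). A unique molecular identifier (UMI) marks each captured 3′ end, and total counts per library were 5736339 and 6186428 in IR and 5867961 and 6810079 in UT. IR cells were deeper, with medians of 20181 and 22036 counts per cell against 15662 and 17627 in UT cells, so that values are given as counts normalized to library totals (CPM) and, for the spread between cells, at 8000 UMIs per cell. The 3 irradiation checks, CDKN1A (959 and 914 CPM in IR, 324 and 277 CPM in UT), MDM2 and GDF15, were all higher in IR. The mesenchymal markers VIM (1723 to 2215 CPM) and COL1A1 (1537 to 2377 CPM) were abundant in all 4 libraries and TWIST1 was at 0 in 3 of them, while the summed epithelial markers reached 35.0 to 42.4 CPM, the haematopoietic ones 0.511 to 7.78 CPM and the endothelial ones 1.70 to 3.39 CPM. There were 376 distinct cell barcodes, and 161 of them occurred in all 4 libraries, and plates of this method carry the same set of barcoded primers.

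The 8 genes lie on 5 autosomes in GRCh38 (GENCODE 44 extents). FN1 (ENSG00000115414) spans chr2:215360440-215436073, TGFBI (ENSG00000120708) chr5:136028988-136063818, SPARC (ENSG00000113140) chr5:151661096-151686975 and LOX (ENSG00000113083) chr5:122063195-122078413. THBS1 (ENSG00000137801) spans chr15:39581079-39599466, FBN1 (ENSG00000166147) chr15:48408313-48645721, TNC (ENSG00000041982) chr9:115019575-115118207 and POSTN (ENSG00000133110) chr13:37562583-37598844. Exons of genes on the opposite strand overlap exons of THBS1 (FSIP1 and THBS1-AS1), LOX (SRFBP1), SPARC (CLMAT3) and TNC (DELEC1), and whether counting used the strand is not given in the sources used here. No exon of another gene lay within the last 1000 bases of any of the 8 genes, where 3′ tags are expected to fall.

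The bases just before the start sites are shown for the 4 genes that were detected in enough cells to follow their co-expression. Over the 4 libraries, the mean Pearson r between cells was 0.159 to 0.251 among FN1, THBS1 and SPARC and -0.057 to 0.00037 with TGFBI. Single libraries differed, and in IR experiment 1 r was 0.0588 for THBS1 and SPARC and 0.115 for TGFBI and SPARC. The bases come from RefSeq (GRCh38.p14), where 7 of the 8 genes had bases to show, and were trimmed where GENCODE already places the gene. Capitals mark matches on either strand to any of 7 motifs. They are the cyclic AMP response element (CRE) TGACGTCA, the TATA box letters TATAAA, the AP-1 site TGACTCA, the TEAD site GGAATG, the SMAD element CAGAC, the GC box GGGCGG and the letters CCAAT. Neighbouring matches may overlap.
FN1 (chr2:215436074-215436318, minus strand): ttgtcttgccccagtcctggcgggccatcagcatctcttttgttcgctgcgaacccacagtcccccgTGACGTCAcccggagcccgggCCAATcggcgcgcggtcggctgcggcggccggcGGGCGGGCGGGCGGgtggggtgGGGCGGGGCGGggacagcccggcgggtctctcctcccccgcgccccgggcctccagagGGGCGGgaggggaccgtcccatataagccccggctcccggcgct
TGFBI (chr5:136028738-136028987, plus strand): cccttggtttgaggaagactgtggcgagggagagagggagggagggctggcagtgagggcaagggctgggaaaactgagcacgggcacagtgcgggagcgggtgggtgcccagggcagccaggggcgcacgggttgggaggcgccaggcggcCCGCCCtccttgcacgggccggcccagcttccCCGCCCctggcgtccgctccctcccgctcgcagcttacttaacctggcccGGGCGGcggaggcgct
THBS1 (chr15:39580829-39581078, plus strand): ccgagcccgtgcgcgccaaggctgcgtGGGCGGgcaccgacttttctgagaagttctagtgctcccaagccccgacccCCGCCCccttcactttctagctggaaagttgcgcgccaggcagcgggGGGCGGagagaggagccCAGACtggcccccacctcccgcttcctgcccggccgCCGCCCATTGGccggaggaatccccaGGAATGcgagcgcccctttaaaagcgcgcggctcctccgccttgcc
SPARC (chr5:151686976-151687165, minus strand): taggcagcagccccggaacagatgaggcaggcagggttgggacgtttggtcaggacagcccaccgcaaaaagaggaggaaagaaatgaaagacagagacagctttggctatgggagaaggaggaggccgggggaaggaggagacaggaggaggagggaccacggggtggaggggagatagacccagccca
The FN1 window held 1 CRE, 1 CCAAT and 6 GC box matches. Of the 34943 RefSeq windows of 250 bases, 1.634% held a CRE, 32.04% a CCAAT and 42.55% a GC box match. TGFBI had 3 GC boxes only, and THBS1 had 4 GC boxes, a CCAAT, a TEAD match (in 11.89% of windows) and a SMAD match (in 38.01%). The SPARC window, 190 bases after trimming, held none of the 7. The TATA letters are in 10.75% and the AP-1 letters in 4.218% of all windows. A match is a stretch of letters and not a measured binding site.

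FN1, TGFBI and FBN1 were higher in both IR libraries than in both UT libraries. FN1 was at 387 and 542 CPM in IR and 236 and 264 CPM in UT. IR was higher by 1.64-fold in experiment 1 and 2.05-fold in experiment 2. The log2 fold change of FN1 was 0.81 (SE 0.20), and its adjusted p was 0.0842 by edgeR's quasi-likelihood test over 14647 genes, which does not pass 0.05.

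TGFBI was at 196 and 223 CPM in IR, against 138 and 137 CPM in UT. The groups did not overlap, and the ratio was 1.42 in experiment 1 and 1.63 in experiment 2 (log2 fold change 0.53, SE 0.15, edgeR adjusted p = 0.119). FBN1, which encodes fibrillin-1, the main protein of extracellular microfibrils, was at 64.5 and 58.7 CPM in IR and at 36.6 and 35.1 CPM in UT. It was the most even of the 3 between the experiments, with ratios of 1.76 and 1.67 (log2 fold change 0.70, SE 0.16, edgeR adjusted p = 0.0762).

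Thus 3 of the 7 genes tested, FN1, TGFBI and FBN1, had both IR libraries above both UT libraries, where 30.7% of all genes tested did so, and none had both below, where 18.5% did. None of the 7 was called at an adjusted p under 0.05, against 1.63% of all genes called higher and 0.847% called lower in IR, and the same 3 had an unadjusted p under 0.05, as did 10.2% of all genes in this direction and 8.25% in the other. DESeq2 called 1 of them, FN1 (adjusted p = 0.0127), where it called 2.33% of all genes higher. Libraries of the same experiment deviated together (correlation 0.635), and with the experiment as a block the 3 genes passed, FN1 with log2 fold change 0.80 (SE 0.09, edgeR adjusted p = 2.06e-11), TGFBI with 0.53 (SE 0.10, adjusted p = 7.83e-06) and FBN1 with 0.70 (SE 0.13, adjusted p = 8.71e-06). That fit called 14.3% of all genes higher and 12.9% lower and leaves 1 degree of freedom for the spread between libraries. The other 4 genes tested stayed uncalled in it.

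**Figure D1:**
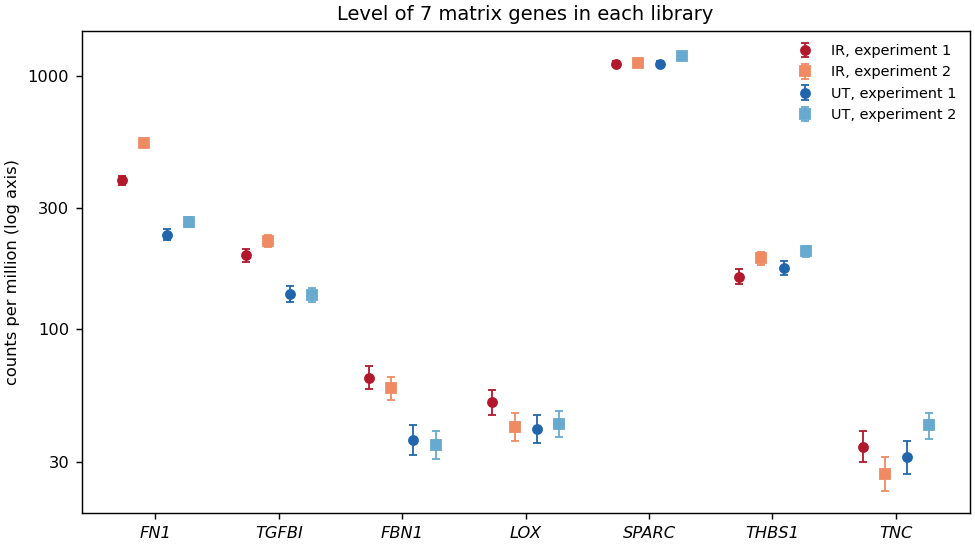
Normalized counts (CPM, log axis) of 7 genes in each library, with IR left of UT, circles for experiment 1 and squares for experiment 2, and bars for 95% exact Poisson intervals of the counts. FN1, TGFBI and FBN1 have both IR libraries above both UT libraries, while SPARC lies between 1114 and 1199 CPM in all 4. POSTN, at 0, 0 and 0 CPM with 0.294 CPM in UT experiment 2, is not drawn.

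The matricellular genes did not separate the groups. SPARC, whose protein binds collagen and calcium, was at 1115 and 1124 CPM in IR and at 1114 and 1199 CPM in UT. Its IR values fell within the UT range (log2 fold change -0.13, SE 0.15, edgeR adjusted p = 0.736). THBS1, which encodes thrombospondin-1, an activator of latent TGF-beta and an inhibitor of vessel growth, was at 161 and 190 CPM in IR and at 174 and 203 CPM in UT. The groups overlapped (log2 fold change -0.18, SE 0.16, edgeR adjusted p = 0.631), although within each experiment the IR library was the lower one.

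TNC, which encodes the anti-adhesive hexameric protein tenascin-C, went opposite ways in the experiments. It was at 34.5 and 27.0 CPM in IR and at 31.4 and 41.9 CPM in UT, a ratio of 1.10 in experiment 1 and 0.645 in experiment 2 (log2 fold change -0.33, SE 0.22, edgeR adjusted p = 0.482). LOX, the secreted amine oxidase that cross-links collagen and elastin, was at 51.6 and 41.2 CPM in IR and at 40.6 and 42.4 CPM in UT. Its ratio was 1.27 in experiment 1 and 0.971 in experiment 2, and the groups overlapped (log2 fold change 0.08, SE 0.18, edgeR adjusted p = 0.872). POSTN, the periostin gene, had no count in IR and 2 counts, both in UT experiment 2, so that it did not pass the filter on low counts. At 8000 UMIs per cell it was seen in 0 of 231 and 0 of 232 IR cells and 0 of 333 and 0 of 356 UT cells, which, at 3 counts of the total, allows shares of up to 1.3% and 1.29% in IR and 0.901% and 0.843% in UT.

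Per cell, the values of IR cells were higher for each of the 7 detected genes in the mean of the 2 libraries. The mean deposited value per cell was 8.98 and 13.5 for FN1 in IR, against 3.87 and 4.90 in UT. It was 25.9 and 28.0 for SPARC in IR cells and 18.3 and 22.3 in UT cells. With the number of cells in place of total counts as library size, the median log2 fold change of all genes tested was 0.54, and FN1 (1.36, edgeR adjusted p = 0.0149), FBN1 (1.24, adjusted p = 0.0106) and TGFBI (1.07, adjusted p = 0.0132) passed, where 22.7% of all genes were called higher. SPARC, THBS1 and TNC, negative per total, were positive under this scaling (0.41, 0.36 and 0.19) and under spike-in totals with the block (0.50, 0.44 and 0.29), which moved the median of all genes by 0.61.

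**Figure D2:**
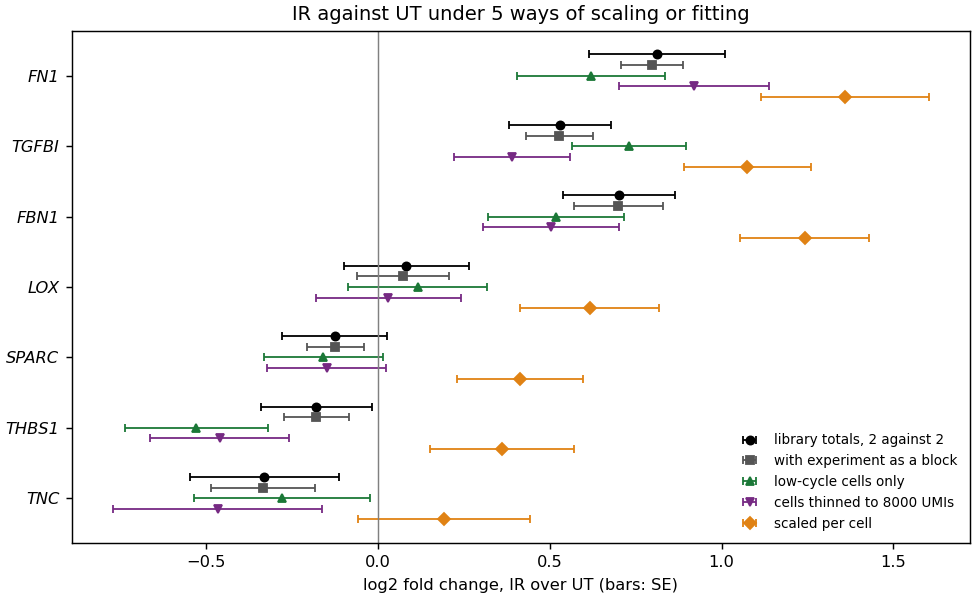
Log2 fold change of IR over UT for 7 genes under 5 settings, with bars for the SE of each fit. FN1, TGFBI and FBN1 lie right of 0 under all 5, from 0.39 (TGFBI, cells thinned) to 1.36 (FN1, per cell), while SPARC, THBS1 and TNC lie left of 0 except when scaled per cell.

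IR libraries held a smaller share of cells high in S and G2/M phase transcripts, and FN1 differed between the cells so divided. Cells were split at the median, over all 1220 cells, of the share of counts on 97 S and G2/M phase genes, none of them among the 8. The upper range is called cycling and the lower one low-cycle. Low-cycle cells made up 66.0% and 65.3% of the IR cells and 41.3% and 37.3% of the UT cells, and 27 and 24 IR cells and 55 and 39 UT cells lay within 10% of the boundary. The classes are ranges of a score and differ in depth, with medians of 23907 and 27242 counts in cycling against 18848 and 20329 in low-cycle IR cells, and 16919 and 19569 against 14463 and 14995 in UT cells.

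In IR, FN1 was at 259 and 332 CPM in cycling cells and at 471 and 699 CPM in low-cycle cells. In UT it was at 166 and 215 CPM in cycling cells and at 359 and 373 CPM in low-cycle cells. Cycling cells were the lower class in 4 of 4 libraries, with ratios between 0.462 and 0.578 (log2 fold change -0.94, SE 0.05, edgeR adjusted p = 2.56e-15 with library as a block).

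SPARC was also lower in cycling cells of every library, with ratios between 0.813 and 0.865 (log2 fold change -0.25, SE 0.04, edgeR adjusted p = 1.58e-05). FBN1 had ratios between 0.670 and 0.903 (log2 fold change -0.29, SE 0.10, edgeR adjusted p = 0.0233), a call that was lost on leaving out the UT library of experiment 1 (0.0536) or of experiment 2 (0.148) and without the filter on low counts (0.0644). Thus 3 of 7 genes were called lower in cycling cells and none higher, where 17.6% of all genes tested were called lower and 18.7% higher. TGFBI (log2 fold change -0.01), THBS1 (0.05), TNC (-0.07) and LOX (0.17) were not called. When the upper tertile of the score was set against the lower one, LOX was called higher in the upper (0.36, edgeR adjusted p = 0.0257).

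**Figure D3:**
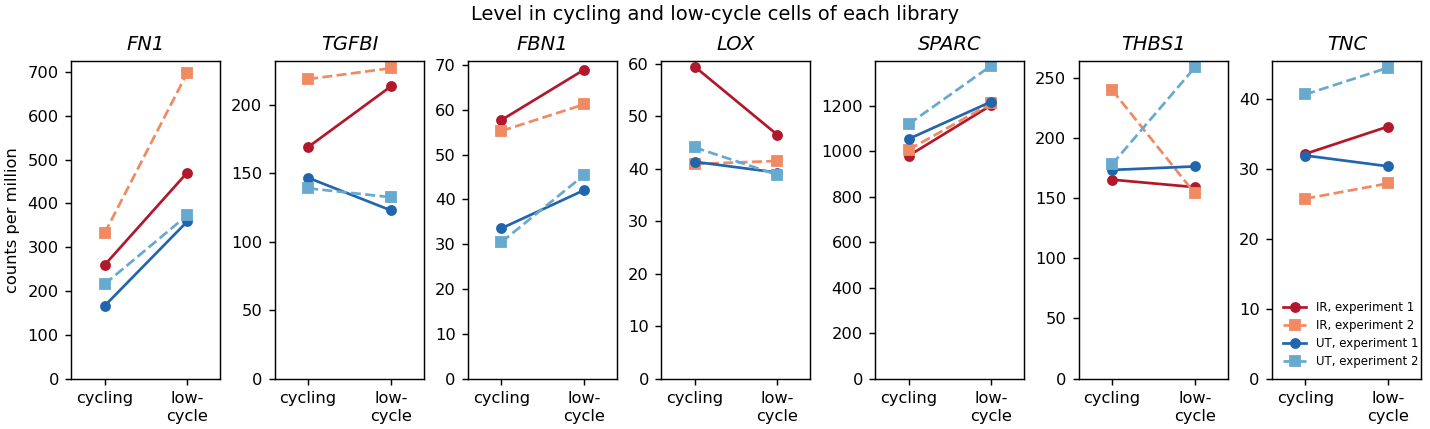
CPM in cycling cells (left of each panel) and low-cycle cells (right), 1 line per library, each panel with its own axis from 0. FN1 is lower in cycling cells in all 4 libraries and IR lies above UT within each class of each experiment, while the THBS1 lines cross.

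The share of low-cycle cells moved with irradiation, so the IR and UT cells were also compared within each class. For FN1 the ratio of IR over UT was 1.31 and 1.87 in low-cycle cells and 1.56 and 1.54 in cycling cells. For TGFBI it was 1.74 and 1.71 in low-cycle cells and 1.15 and 1.57 in cycling cells, and for FBN1 1.64 and 1.35 and then 1.72 and 1.82. All 12 of these ratios lay above 1. The genes were taken because their totals were higher in both IR libraries, and the classes are parts of those totals. The ratios are thus no separate evidence, and the share of all genes with such ratios was not counted.

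Among low-cycle cells only, the edgeR fit of 2 against 2 libraries called none of the 7, with 0.62 for FN1, 0.73 for TGFBI and 0.52 for FBN1 on the log2 scale (adjusted p = 0.221, 0.0714 and 0.266). With the experiment as a block, which was added once these values were known, all 3 passed, where 9.59% of all genes were called higher. In the same fit THBS1 was called lower (log2 fold change -0.51, edgeR adjusted p = 5.45e-05), as were 8.28% of all genes. THBS1 in low-cycle cells was at 159 and 154 CPM in IR and at 176 and 258 CPM in UT. In cycling cells it was at 165 and 240 CPM in IR and at 173 and 178 CPM in UT, so that the ratio in low-cycle cells was 0.902 in experiment 1 and 0.595 in experiment 2.

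At equal depth the genes differed in how they were spread over cells. Cells were thinned at random to 8000 UMIs, which left out 16 and 16 IR cells and 25 and 11 UT cells with fewer. FN1 was detected in 72.3% (95% exact Clopper-Pearson interval 66.0 to 78.0) and 79.7% (74.0 to 84.7) of IR cells, against 62.8% (57.3 to 68.0) and 71.6% (66.6 to 76.3) of UT cells. Without thinning these shares were 86.2% and 93.1% in IR and 80.4% and 86.9% in UT. The intervals cover counting error only.

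The mean of FN1 was 3.25 and 4.91 UMIs per thinned cell in IR and 2.01 and 2.12 in UT. Its Fano factor, the variance over the mean, was 7.31 and 8.89 in IR and 4.68 and 3.57 in UT, at or above the 99.4th percentile of the genes detected in at least 25% of cells in each library. The median Fano factor of those genes was 1.16 and 1.17 in IR and 1.11 and 1.10 in UT, so it was higher in IR as well. The coefficient of variation of FN1, the SD over the mean, overlapped between the groups, at 1.5 and 1.35 in IR and 1.52 and 1.3 in UT. So the Fano factor separated the groups for FN1 while the spread relative to the mean did not. With 2 libraries a group, the exact permutation test cannot give a two-sided p below 0.333.

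FN1 UMIs were unevenly spread over cells, which was not particular to FN1. The 10% of cells with the most FN1 held 46.8% and 42.1% of the FN1 UMIs in IR and 46.0% and 41.4% in UT. These shares were close to level between the groups. The same share was higher for THBS1, TNC, LOX and FBN1 in each library and lower for SPARC. For TGFBI it was 43.8% and 41.3% in IR and 41.9% and 48.4% in UT. Cells with at least 10 of 8000 UMIs from FN1 made up 7.79% and 16.4% of IR cells and 3.00% and 2.53% of UT cells. The highest single cell had 30 and 43 FN1 UMIs in IR and 20 and 20 in UT.

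TGFBI had a mean of 1.39 and 1.54 UMIs in IR and 1.08 and 1.07 in UT. Its share of thinned cells with a UMI was 54.5% and 59.1% in IR and 54.4% and 49.7% in UT, set beside 73.7% and 78.6% in IR and 65.9% and 66.8% in UT without thinning. Its Fano factors of 3.10 and 2.81 in IR lay above the 2.15 and 2.52 in UT, and its coefficients of variation overlapped (1.49 and 1.35 in IR, 1.41 and 1.54 in UT).

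For THBS1 and SPARC the Fano factor and the coefficient of variation were both higher in both IR libraries than in both UT libraries. How many of all genes did so was not counted, so this is not shown to be particular to them. The median Fano factor of the genes ranked was higher in IR as well, at 1.16 and 1.17 against 1.11 and 1.10 in UT. THBS1 had a mean of 1.04 and 1.41 UMIs in IR and 1.46 and 1.78 in UT, and its share of thinned cells with a UMI was 40.3% and 50.9% in IR against 55.0% and 61.0% in UT (59.1% and 70.2% in IR, 70.1% and 74.7% in UT without thinning). Its Fano factor was 3.94 and 4.79 in IR and 3.65 and 3.70 in UT, although among low-cycle cells only the groups overlapped (3.76 and 5.88 in IR, 4.31 and 4.44 in UT). Its coefficient of variation was 1.95 and 1.84 in IR and 1.58 and 1.44 in UT, and the 10% of cells with the most THBS1 held 57.5% of its UMIs in IR experiment 1, against 48.0% and 45.9% in UT. THBS1 was thus in fewer IR than UT cells at equal depth in both experiments, with a higher coefficient of variation. Its mean was also lower in IR, and the part of counting noise in that coefficient was not tested.

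SPARC was found in over 99% of thinned cells of each library. Its mean was 8.56 and 9.20 UMIs in IR and 9.12 and 9.77 in UT, and its Fano factor 2.52 and 2.93 in IR and 2.085 and 2.004 in UT. Its coefficient of variation, 0.542 and 0.564 in IR against 0.478 and 0.453 in UT, was the lowest of the 7 genes in each library. The deposited values set a limit here, since no gene exceeded 138 in any cell, and SPARC reached 101 in IR and 86.9 in UT, with 29 and 28 IR cells and 2 and 4 UT cells at or above 50. FN1 reached 83.8 and 103 in IR and 35.1 and 38.2 in UT. Whether merging of short UMIs lowered the highest values was not tested.

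The 3 remaining detected genes were sparse. FBN1 was seen in 31.6% and 33.2% of IR cells and 24.3% and 24.7% of UT cells at 8000 UMIs (54.7% and 64.1% in IR, 39.9% and 42.0% in UT without thinning), with Fano factors from 1.00 to 1.32. LOX was seen in 29.9% and 23.3% of thinned IR cells and 24.9% and 27.5% of UT cells, and its highest Fano factor, 1.92 in IR experiment 2, came with a single maximum of 8 UMIs where the other libraries reached 3. TNC was seen in 22.1% and 15.5% of thinned IR cells and 18.6% and 29.2% of UT cells. Of these 3, only FBN1 was seen in a higher share of cells in both IR libraries than in both UT libraries. How many of all genes did so was not counted. The median number of genes per thinned cell was itself higher in IR, at 3744 and 3754 against 3662 and 3701 in UT.

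The study measured variability as the residual from a linear fit of log2 SD on log2 mean expression, and a residual of this kind was computed here per library, on log-normalized values of thinned cells and of the cells as deposited. On thinned cells, FN1 had residuals of 0.34 and 0.32 in IR and 0.35 and 0.23 in UT, THBS1 0.43 and 0.37 in IR and 0.36 and 0.34 in UT, and TGFBI 0.31 and 0.26 in IR and 0.22 and 0.31 in UT. All 12 values lay at or above the 98.6th percentile of the genes fitted, and the groups overlapped for FN1 and TGFBI, while both IR values of THBS1 lay just above both UT values. Without thinning, where IR cells were deeper, FN1 had 0.54 and 0.49 in IR against 0.42 and 0.38 in UT, and THBS1 0.64 and 0.60 in IR against 0.48 and 0.56 in UT, so that both separated the groups. TGFBI overlapped there too, with 0.49 and 0.40 in IR and 0.38 and 0.44 in UT. A cut of 0.5 was passed without thinning by FN1 in IR experiment 1 and by THBS1 in both IR libraries and UT experiment 2. Of all genes fitted, 178 of 17597 and 191 of 18208 passed it in IR, against 44 of 16426 and 56 of 16901 in UT. Higher residuals in IR were therefore not particular to these genes. The genes fitted here were not matched to those of the study. Passing the cut above is thus not the same as meeting the study's criterion. SPARC had residuals on thinned cells of -0.84 and -0.78 in IR and -0.90 and -1.17 in UT, among the lowest 1.01% of genes. Its Fano factor on thinned cells lay at the 97.6th and 98.4th percentile in IR and at the 97.5th and 97.5th in UT. That ranking was over the genes used for the FN1 Fano percentile above. So SPARC was near the bottom by residual and near the top by Fano factor.

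**Figure D4:**
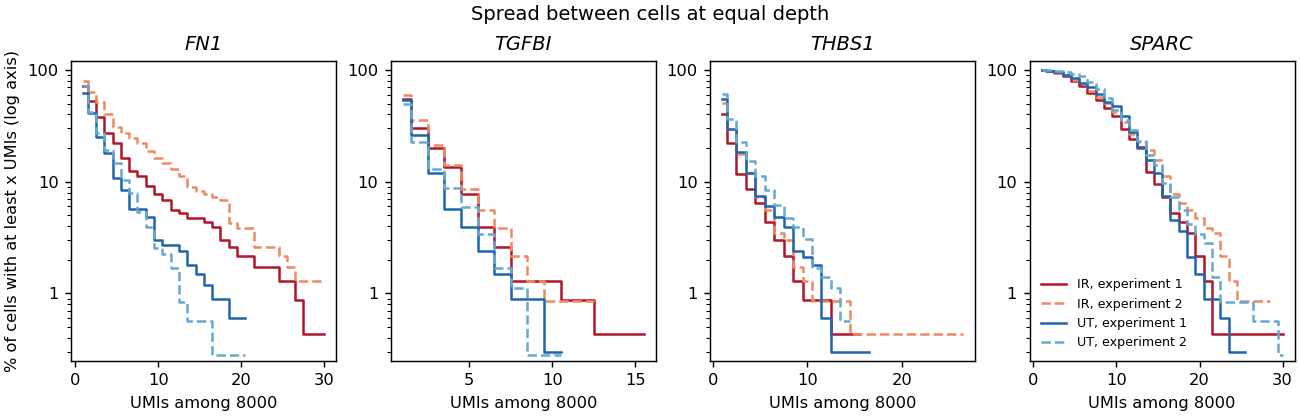
Share of thinned cells (log axis, %) with at least a given number of UMIs among 8000, for FN1, TGFBI, THBS1 and SPARC in each library. The FN1 curves of the IR libraries run to the right, with 7.79% and 16.4% of IR cells against 3.00% and 2.53% of UT cells at 10 UMIs, while the SPARC curves nearly coincide.

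Co-expression was read within each library, as Pearson r of log2(thinned UMIs + 1) over 231 and 232 IR cells and 333 and 356 UT cells. Cells of a library share a plate and a preparation, and r is given as a description. FN1 and SPARC had r of 0.358 and 0.349 in IR and 0.141 and 0.158 in UT. Among low-cycle cells only, the values were 0.354 and 0.306 in IR and 0.106 and 0.155 in UT, so the higher r in both IR libraries was also seen there. FN1 had a higher mean in IR at equal depth, in all cells and in low-cycle cells. The part of that higher mean in r was not tested.

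FN1 and THBS1 had r of 0.222 and 0.274 in IR and 0.102 and 0.209 in UT. THBS1 and SPARC had r of 0.0588 and 0.218 in IR and 0.134 and 0.226 in UT. These 3 pairs were the only ones of 21 with a mean r above 0.1. At 5000 UMIs per cell the mean r of FN1 and THBS1 was 0.109, against 0.202 at 8000.

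TGFBI had a mean r of at most 0.00037 with FN1, THBS1 and SPARC. Its level nonetheless differed between IR and UT in the same direction as that of FN1. FN1 and TGFBI had r of -0.000616 and -0.204 in IR and -0.0245 and 0.00125 in UT. Against SPARC, TGFBI had r between -0.0548 and 0.115, and against THBS1 between -0.0484 and 0.0194. FBN1, LOX and TNC had 0 UMIs in most cells at this depth, and their pairs had mean r between -0.0418 and 0.0985.

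**Figure D5:**
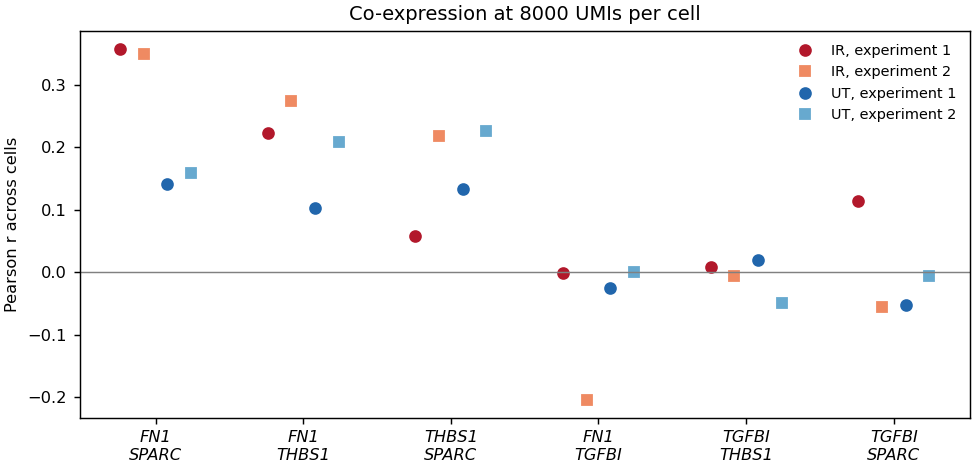
Pearson r across thinned cells for the 6 pairs among FN1, THBS1, SPARC and TGFBI, with IR left of UT, circles for experiment 1 and squares for experiment 2. FN1 and SPARC have r of 0.358 and 0.349 in IR and 0.141 and 0.158 in UT, and the pairs with TGFBI scatter around 0.

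The genes whose values were most like each of these 4 were taken by mean r over the 4 libraries, among 4708 genes detected in at least 25% of thinned cells of every library. For FN1 they were IGFBP5, an IGF-binding protein gene (mean r 0.429), TIMP1, an inhibitor of matrix metalloproteinases (0.396), the collagen genes COL6A3 (0.369) and COL1A1 (0.346) and the lysosomal protease gene CTSB (0.337). The lowest were PA2G4 (-0.280), RAN (-0.260) and TUBA1B (-0.254), which serve growth control, nuclear transport and microtubules. In all, 10 genes had r above 0.2 with FN1 in every library, against 3 for SPARC, 1 for THBS1 and none for TGFBI.

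SPARC was most like COL1A1 (0.328), IGFBP5 (0.307), the integrin beta-1 gene ITGB1 (0.292), the adhesion molecule gene L1CAM (0.255) and FN1 itself (0.251), and least like CDC20 (-0.227), RAN (-0.207) and CCT6A (-0.185). THBS1 was most like IGFBP5 (0.283), COL1A1 (0.237), SERPINE2 (0.218), ITGB1 (0.207) and PMEPA1 (0.204), and least like RPS12 (-0.185), CFL2 (-0.179) and RPS23 (-0.153). IGFBP5 and COL1A1 were thus among the 5 most alike of all 3 genes. The highest values of TGFBI with any gene were lower than those of the other 3, led by FRMD6 (0.172), MICAL2 (0.138), LINC02802 (0.131), BLOC1S2 (0.126) and AMIGO2 (0.123), and its lowest were the mitochondrial genes MT-CO2 (-0.145), MT-CO1 (-0.145) and MT-CYB (-0.142).

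The 5 genes most like FN1 between cells went different ways between IR and UT. IGFBP5, the gene most like FN1 between cells, was at 251 and 261 CPM in IR and at 433 and 441 CPM in UT (log2 fold change -0.85, edgeR adjusted p = 0.0403), opposite to FN1. CTSB was higher in IR, at 514 and 505 CPM against 282 and 253 CPM in UT (log2 fold change 0.85, edgeR adjusted p = 0.0448). COL6A3, at 91.7 and 86.8 CPM in IR and 55.9 and 52.3 CPM in UT, did not pass (log2 fold change 0.64, edgeR adjusted p = 0.0829; 4.57e-06 with the block). TIMP1, at 1774 and 1367 CPM in IR and 1247 and 849 CPM in UT, did not either (log2 fold change 0.50, edgeR adjusted p = 0.331; 4.00e-07 with the block).

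Depth and cycle scores moved with some of these genes. Within libraries, r of FN1 with the cycle share of a cell was -0.204 and -0.244 in IR and -0.268 and -0.158 in UT, and that of SPARC -0.162 and -0.235 in IR and -0.118 and -0.148 in UT. For TGFBI, r with the depth of the cell before thinning was 0.142 and 0.230 in IR and 0.0803 and 0.125 in UT. Their part in the correlations above, beyond the values for low-cycle cells, was not tested.

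Related genes give the surroundings of these 8. Of 47 other matrix glycoprotein genes tested, 5 were called higher and none lower in IR by edgeR (20 and 4 with the block), with a median log2 fold change of 0.25, against -0.003 for all genes tested. For this and the lists that follow, 1.63% of all genes were called higher and 0.847% lower, and 14.3% and 12.9% with the block. The 4 with the smallest p were CCN3, a matricellular protein gene (log2 fold change 1.26), SPOCK1, a proteoglycan gene of the SPARC family (1.36), MFAP5, a microfibril component gene (1.13), and LAMA1, a laminin chain gene (1.60). The fifth was LAMB3 (0.88). SPOCK1 stayed called without any 1 library, the calls of CCN3 and LAMA1 ended without the IR library of experiment 1 (adjusted p = 0.0519 and 0.0827), that of MFAP5 without this library or the UT library of experiment 2 (up to 0.102), and that of LAMB3 in each of the 4 cases (up to 0.195).

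Of 27 genes for collagen modification and cross-linking, 1 was called, the transglutaminase gene TGM2, at 116 and 141 CPM in IR and 59.6 and 53.9 CPM in UT (log2 fold change 1.10, edgeR adjusted p = 0.0326). Its call held only in the fit that left out the UT library of experiment 1, and in the other 3 the adjusted p reached up to 0.0815. With the block 9 were higher and 2 lower, and the median was 0.26. LOX is the founding member of the lysyl oxidases and was not called itself.

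Receptors for these proteins had a median of 0.40, with 4 of 23 called higher and none lower (12 and 4 with the block). CD44, a hyaluronan receptor gene, was at 300 and 308 CPM in IR and at 107 and 121 CPM in UT (log2 fold change 1.33, edgeR adjusted p = 0.0176). ITGA2, a collagen-binding integrin chain gene, had a log2 fold change of 1.23, and the syndecan genes SDC4 and SDC1 had 1.11 and 0.84. CD44 and ITGA2 stayed called without any 1 library, SDC4 lost its call without the IR library of experiment 2 or the UT library of experiment 1 (up to 0.0893) and SDC1 in each of the 4 cases (up to 0.213).

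Of 26 collagen genes 4 were called higher and none lower (12 and 2 with the block, median 0.46): COL17A1 (log2 fold change 3.58), COL27A1 (1.26), COL4A1 (1.02) and COL4A2 (0.84). COL17A1 stayed called without any 1 library and was low, at 7.67 and 10.7 CPM in IR and 0.682 and 0.734 CPM in UT. Leaving out the IR library of experiment 1 or the UT library of experiment 2 ended the call of COL27A1 (up to 0.0590), leaving out any library but the UT library of experiment 1 ended that of COL4A1 (up to 0.145), and leaving out any library ended that of COL4A2 (up to 0.203). COL1A1, the gene most like SPARC between cells, was not among them (log2 fold change -0.05, edgeR adjusted p = 0.947).

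TGF-beta induces several of the 8 genes in many cell types. Of 28 ligands, receptors and signal transducers of that pathway, 2 were called higher, BMP2 (log2 fold change 1.59) and INHBA (0.89), and none lower, with a median of -0.03. With the block 5 were higher and 7 lower, set beside the 14.3% and 12.9% of all genes. Of 29 known TGF-beta targets, 5 were called higher and 1 lower, with a median of 0.09 (9 and 6 with the block). Those higher included ACTA2 (1.95), SNAI2 (1.21) and the collagen genes COL4A1 and COL4A2 above, while LMCD1 was lower, at 24.4 and 26.5 CPM in IR and 46.5 and 50.7 CPM in UT (log2 fold change -1.01). Of the genes named here only ACTA2 stayed called without any 1 library. SNAI2 lost its call without the IR library of experiment 1 (0.0946). BMP2 kept it only without the IR library of experiment 2 (up to 0.134 otherwise), and INHBA and LMCD1 lost it in each of the 4 cases (up to 0.174 and 0.145).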

How the data were processed

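IR and UT cells were sorted singly into plate wells and processed by SORT-seq with CEL-Seq2 libraries. The authors mapped reads to GRCh38 with STARsolo, leaving out intronic and multi-gene reads (Seurat 5 is named for later steps), and deposited expected counts, which are Poisson-corrected UMI counts: at least 99.9% of the values per library equal the correction for 4096 UMIs of 6 bases within rounding. How UMIs were merged, whether strand was used and which barcodes were kept is not given in the sources used here. Whole counts had been assumed in the design.

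Deposited expected counts were summed per library, without the 92 ERCC rows (0.191% to 1.21% of counts), and rounded. IR was compared with UT by edgeR 4.0.16 in R 4.3.3 (quasi-likelihood, TMM, filterByExpr, Benjamini-Hochberg over 14647 genes, called under 0.05) on 2 against 2 libraries. Log2 fold changes come from this fit, and ratios within an experiment come from CPM. The experiment number was a block in an alternative. The titles mark the shared experiment, and same-numbered libraries deviated together (correlation 0.635). Other alternatives were DESeq2 1.42.0, RLE factors, no filter, 1 library left out, 247 cells per library, whole UMIs, cells thinned to 8000 UMIs, low-cycle cells, scaling per cell and spike-in totals. The fits were tested on simulated data.

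Named genes were the 8 genes, up to 4 called genes of each related list by smallest p, the 5 most and 3 least alike genes for 4 of the 8, and the irradiation checks. Genes named beside these were chosen after their values were seen. The 8 genes and the lists were chosen with earlier results of these data known. 1 gene of a related list is not reported here by name.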

Additional observations from a re-analysis of the deposited data

Results flagged for a closer look

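For TNC and LOX the 2 experiments gave ratios on opposite sides of 1. SPARC was flagged by sign alone, as it was level in experiment 1, at 1115 CPM in IR and 1114 CPM in UT. The difference between experiments was not tested, since each holds 1 library a group. The log2 ratio of IR over UT of TNC was 0.14 in experiment 1 and -0.63 in experiment 2, a difference of -0.77. For LOX it was 0.35 and -0.04, a difference of -0.39. For SPARC it was 0.0011 and -0.094, a difference of -0.095.

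For TGFBI and THBS1 the ratio of cycling over low-cycle cells lay on opposite sides of 1 in the IR and UT libraries. For TGFBI it was 0.792 and 0.965 in IR and 1.19 and 1.05 in UT, and the log2 difference, IR minus UT, was -0.37 (SE 0.12, edgeR adjusted p = 0.132 over 12955 genes with library as a block, unadjusted 0.00262). For THBS1 it was 1.04 and 1.56 in IR and 0.983 and 0.689 in UT, a log2 difference of 0.65 (SE 0.27, edgeR adjusted p = 0.541). Neither passed, where 1.1% of all genes did.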

How the results depend on the processing

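With 2 libraries a group, 1 plate preparation each, the limits are the spread between experiments and, for POSTN, TNC, LOX and FBN1, the counts per cell. The 363 genes called of all tested became 3977 with the replicate block, 572 by DESeq2, 1513 with no filter, 226 in low-cycle cells, 3379 per cell, 5072 with spike-in totals and the block, 2351 in low-cycle cells with the block, 9793 per cell with the block and 108 to 234 without 1 library. Of the 7 genes tested, 0 called became 3 with the replicate block (FN1, TGFBI, FBN1), 1 by DESeq2, 2 with no filter (FN1 and FBN1), 3 per cell, 3 with spike-in totals and the block, 4 in low-cycle cells with the block and 6 per cell with the block. None was called without any 1 library, with RLE factors, equal cells, whole UMIs, thinned cells or low-cycle cells. Per cell scaling without and with the block turned THBS1 (0.36 and 0.36), SPARC (0.41 and 0.42) and TNC (0.19 and 0.21) positive, as did spike-in totals with the block (0.44, 0.50 and 0.29). By construction these scalings carry the higher counts of IR cells. LOX ranged from -0.10 to 0.24 without 1 library. FN1 ranged from 0.56 to 1.02, TGFBI from 0.44 to 0.61 and FBN1 from 0.62 to 0.77. For cycling over low-cycle cells, TGFBI was 0.018 with no filter and -0.10 to 0.093 without 1 library, THBS1 ranged from -0.16 to 0.26, and TNC was 0.13 between the upper and lower tertiles of the score. The causes were not tested. Of 42 alternative Fano factors 25 moved by more than the spread between libraries, as did 23 of 48 shares of cells and 8 of 63 mean correlations of pairs. In the IR against UT fit the block changed the call of none of the other 4 genes tested.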
